A study of Rattus norvegicus with 24 samples.

Results

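The extracellular matrix of the artery wall was examined through 42 probes for 37 genes of collagens, laminins, elastic fibre proteins, crosslinking enzymes, adhesive glycoproteins and proteoglycans, out of 10399 probes in the deposited table (6455 genes with a single symbol). The members were all probes annotated with 1 gene symbol that starts with Col and a digit, with Lama, Lamb or Lamc and a digit, or with Fbn, Fbln, Plod, Lox, Thbs or Tnx, together with the symbols Eln, Fn1, Postn, Sparc, Dcn, Bgn, Lum, Vcan and Bcan. The rule used gene symbols only, but it was written with earlier results of these data known. Of the 42 probes, 39 (35 genes) could be tested, because 3 or more animals of every group had a value, among 10228 such probes in all. The probes for Eln (elastin) and Dcn (decorin) and probe 10613 of Sparc had no value on any of the 24 arrays, and Col1a2, Col3a1, Lox, Lamb1, Lamc1, Thbs and Tnx genes were not analysed here.

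RNA came from mesenteric arteries, the small arteries that supply the gut, of female Sprague Dawley rats. All 12 animals lacked ovaries: they were ovariectomised at 3 weeks, rested for 2 weeks, were injected intraperitoneally for 4 days, and were 5.5 weeks old. Estradiol benzoate, an estradiol ester, was given at 0.15 mg/kg/day to 4 rats (animals 2, 3, 5 and 8), testosterone at 1 mg/kg/day to 4 rats (animals 2, 4, 6 and 8), and sesame oil vehicle to 4 rats (animals 3, 4, 5 and 8). The same number in different groups marks different animals. Each cRNA was hybridised to 2 one-colour CodeLink arrays, so the animal, not the array, was the replicate.

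The matrix of an artery carries its wall tension. Fibrillar collagens, with type I collagen the main one, give tensile strength, and elastic fibres, built from elastin on a scaffold of fibrillins and fibulins, give recoil. Basement membranes of type IV collagen and laminins surround smooth muscle cells and underlie the endothelium. Collagen strength depends on crosslinks: lysyl hydroxylases (Plod genes) hydroxylate collagen lysines inside the cell, and lysyl oxidases (Lox genes) oxidise lysines outside it. Plod2 encodes the lysyl hydroxylase that acts on the collagen telopeptides.

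Deposited values were scaled spot intensities, with array medians between 0.926 and 0.951. They carried no detection calls, so a low intensity cannot be told from no signal, and intensities of different probes are not comparable. For matrix probes the median standard deviation (SD) on the log2 scale was 0.132 for the 2 arrays of an animal and 0.217 across a group's animals, against 0.119 and 0.195 for all probes tested. Blank spots were frequent among bright probes: 25.5% of spots were blank for the 107 probes with a mean log2 intensity above 5, against 2.05% for the 10240 dimmer probes. Postn (periostin) was blank on 5 arrays and Col1a1 probe 10618 on 3, and both had no value in estradiol benzoate animal 5. Smooth muscle markers were represented by 3 of 12 listed genes (Cnn1, Smtn and Tpm1), whose summed intensity was 32.5 to 44.6 in estradiol benzoate animals, 34.8 to 45.4 in testosterone animals and 36.3 to 53.5 in vehicle animals. Markers of neighbouring organs varied between animals and groups. The 7 pancreatic acinar markers tested summed to 0.498, 99.8, 1.57 and 4.81 in estradiol benzoate animals 2, 3, 5 and 8, 0.425 to 2.2 in testosterone animals and 0.46 to 1.15 in vehicle animals. At an unadjusted p under 0.05, 5 of the 7 were higher with estradiol benzoate than with vehicle (against 6.77% of all probes). The 8 hepatocyte markers summed to 1.17 to 2.71 in estradiol benzoate animals, 0.757 to 2.08 in testosterone animals and 6.12, 3.71, 36.7 and 1.26 in vehicle animals 3, 4, 5 and 8. Of these 8, 4 were lower with estradiol benzoate (against 6.69% of all probes) and 6 lower with testosterone (against 7.43%) than with vehicle. Estradiol benzoate animal 3 and vehicle animal 5 stood highest but not alone, and the part of these tissues in the matrix differences was not tested. The count for estradiol benzoate against vehicle is also given without these 2 animals.

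The promoter windows of the 3 matrix genes with the smallest p in estradiol benzoate against vehicle are shown first, since these genes recur throughout. Each window holds 250 bases before and 50 bases after the annotated start of the gene (RefSeq, assembly GRCr8, plus strand): Plod2 at chr8:101964068-101964367, Postn at chr2:140677811-140678110 and Fbln2 at chr4:125261409-125261708. Capitals mark motif matches on either strand. The TATA box was searched as TATAAA. The GC box, bound by Sp1-type factors, was searched as GGGCGG, so that it reads CCGCCC where it lies on the other strand. The core of the hypoxia response element was searched as ACGTG, which reads CACGT on the other strand.
Plod2: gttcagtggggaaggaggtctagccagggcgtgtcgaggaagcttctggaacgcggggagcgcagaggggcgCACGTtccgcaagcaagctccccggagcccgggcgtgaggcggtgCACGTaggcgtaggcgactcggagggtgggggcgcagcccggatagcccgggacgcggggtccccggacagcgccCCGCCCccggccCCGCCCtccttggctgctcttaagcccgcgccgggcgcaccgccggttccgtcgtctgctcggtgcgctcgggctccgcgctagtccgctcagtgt
Postn: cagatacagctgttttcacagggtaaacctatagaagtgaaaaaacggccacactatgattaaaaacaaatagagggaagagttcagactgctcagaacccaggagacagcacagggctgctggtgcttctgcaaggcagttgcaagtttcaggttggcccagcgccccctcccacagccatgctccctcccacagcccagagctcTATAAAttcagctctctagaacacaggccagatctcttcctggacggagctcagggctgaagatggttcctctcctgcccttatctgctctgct
Fbln2: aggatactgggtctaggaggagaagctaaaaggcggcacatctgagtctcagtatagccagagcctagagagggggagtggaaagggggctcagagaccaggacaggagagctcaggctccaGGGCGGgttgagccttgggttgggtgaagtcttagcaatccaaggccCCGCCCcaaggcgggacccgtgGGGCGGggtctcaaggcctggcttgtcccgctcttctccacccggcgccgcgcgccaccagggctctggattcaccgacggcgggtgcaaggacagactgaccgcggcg
The Plod2 window held 2 matches to ACGTG and 2 GC boxes, the Postn window held 1 TATA box, and the Fbln2 window held 3 GC boxes. Among all 33469 windows of this length, 19.3% held the hypoxia response core, 33.1% the GC box and 14.2% the TATA box. Among the 28 windows available for 27 matrix genes, 2, 12 and 3 held these motifs. The full estrogen response element, searched as GGTCA with its inverted repeat after any 3 bases, was in 0 of the 28 matrix windows and in 0.0269% of all windows. The full androgen response element, searched as AGAACA with its inverted repeat after any 3 bases, was in 0 matrix windows and in 0.0149% of all windows. The AP-1 site TGACTCA was in 2 of the 28 matrix windows and 4.63% of all windows. The CCAAT box was in 7 matrix windows and 37.5% of all windows. The 3 windows shown held neither of these last motifs. A match is a description of these letters, not of binding.

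**Figure D1:**
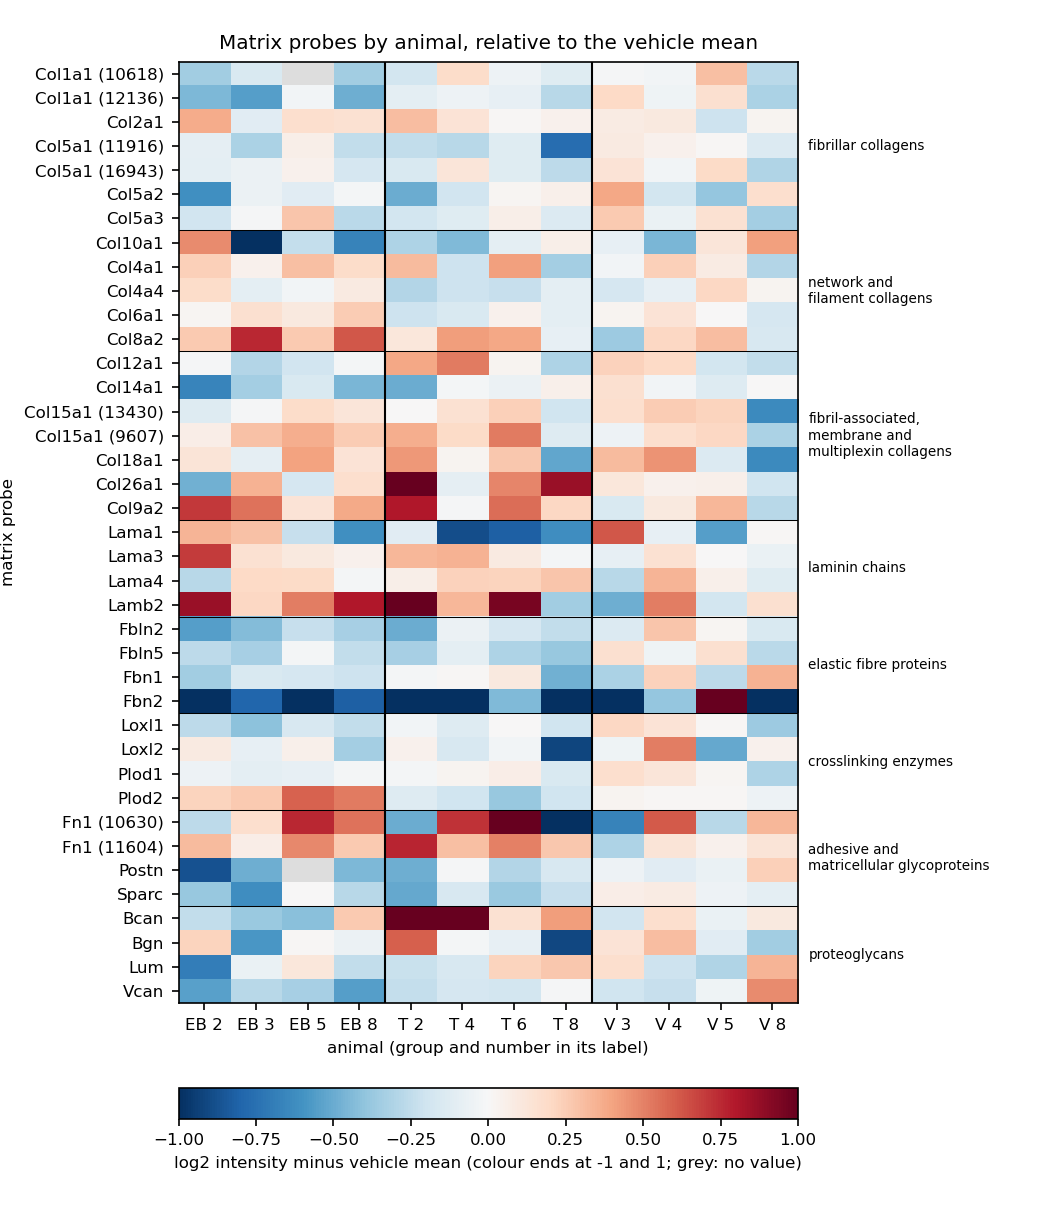
Log2 intensity of each tested matrix probe (rows, by role) in each animal (columns: EB estradiol benzoate, T testosterone, V vehicle), minus the mean of the vehicle animals, with probe numbers where a gene has more than 1 probe. Plod2 is above the vehicle mean in all 4 estradiol benzoate animals and below it in all 4 testosterone animals, and Fbn2 is set by vehicle animal 5.

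Plod2 separated the 3 groups. Its intensity was 9.12, 9.42, 11.8 and 11.2 in estradiol benzoate animals 2, 3, 5 and 8, 7.15, 6.84, 6.05 and 6.84 in testosterone animals 2, 4, 6 and 8, and 8.01, 7.89, 7.91 and 7.59 in vehicle animals 3, 4, 5 and 8, the last from 1 array. Every estradiol benzoate animal lay above every vehicle animal, and every vehicle animal lay above every testosterone animal. This order, looked for after the values were seen, held for 2 of the 10228 probes tested (0.0196%). Separation of the 3 groups in any other order was not counted, so this share is not that of all separated probes. Mean log2 intensity was 3.37 ± 0.18 with estradiol benzoate, 2.75 ± 0.10 with testosterone and 2.97 ± 0.03 with vehicle (SD, n = 4 each). For this probe the SD between the 2 arrays of an animal was 0.23, larger than the 0.123 across a group's animals. The small spread of the vehicle means therefore overstates the precision of the arrays. Estradiol benzoate against testosterone gave a log2 difference of 0.62 (SE 0.10, 95% interval 0.41 to 0.84), a 1.54-fold ratio with the 5th smallest p of all probes (adjusted p = 0.08984 in limma). The difference was 0.76 on the AA arrays alone and 0.49 on the AB arrays alone. That comparison passed 0.05 with a pseudocount of 0.1 (adjusted p = 0.03453), with the probes below the 0.25 quantile of brightness left out (0.04649) and with a trended, robust prior (0.03171), while the adjusted p ranged up to 0.705 over all settings. In the settings where it passed, 4 of 10229, 4 of 7671 and 4 of 10228 probes were called. Against vehicle, Plod2 differed by 0.40 with estradiol benzoate (SE 0.10, adjusted p = 0.1854 in limma) and by -0.23 with testosterone (SE 0.10, adjusted p = 0.3426 in limma). The testosterone difference was -0.35 on the AA arrays alone, -0.10 on the AB arrays alone, -0.14 after quantile normalization and -0.13 with the animal number as a block.

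The groups overlapped for all 3 other crosslinking enzymes. Plod1, the lysyl hydroxylase of the collagen helix, had intensities of 2.56 to 2.7 with estradiol benzoate, 2.46 to 2.88 with testosterone and 2.21 to 3.08 with vehicle, with a log2 difference of -0.06 for estradiol benzoate against vehicle (95% interval -0.29 to 0.17). Loxl1, a lysyl oxidase tied to elastic fibres, was at 7.29, 6.59, 7.85 and 7.35 in estradiol benzoate animals, 8.57, 7.99, 8.76 and 7.61 in testosterone animals, and 10.1, 9.65, 8.83 and 6.84 in vehicle animals. Its estradiol benzoate difference from vehicle was -0.27 (SE 0.12, adjusted p = 0.3515 in limma), and vehicle animal 8 lay inside the estradiol benzoate range. Loxl2, another lysyl oxidase, differed by -0.07 with estradiol benzoate and by -0.27 with testosterone (SE 0.24 each), with testosterone animal 8 lowest at 0.424.

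**Figure D2:**
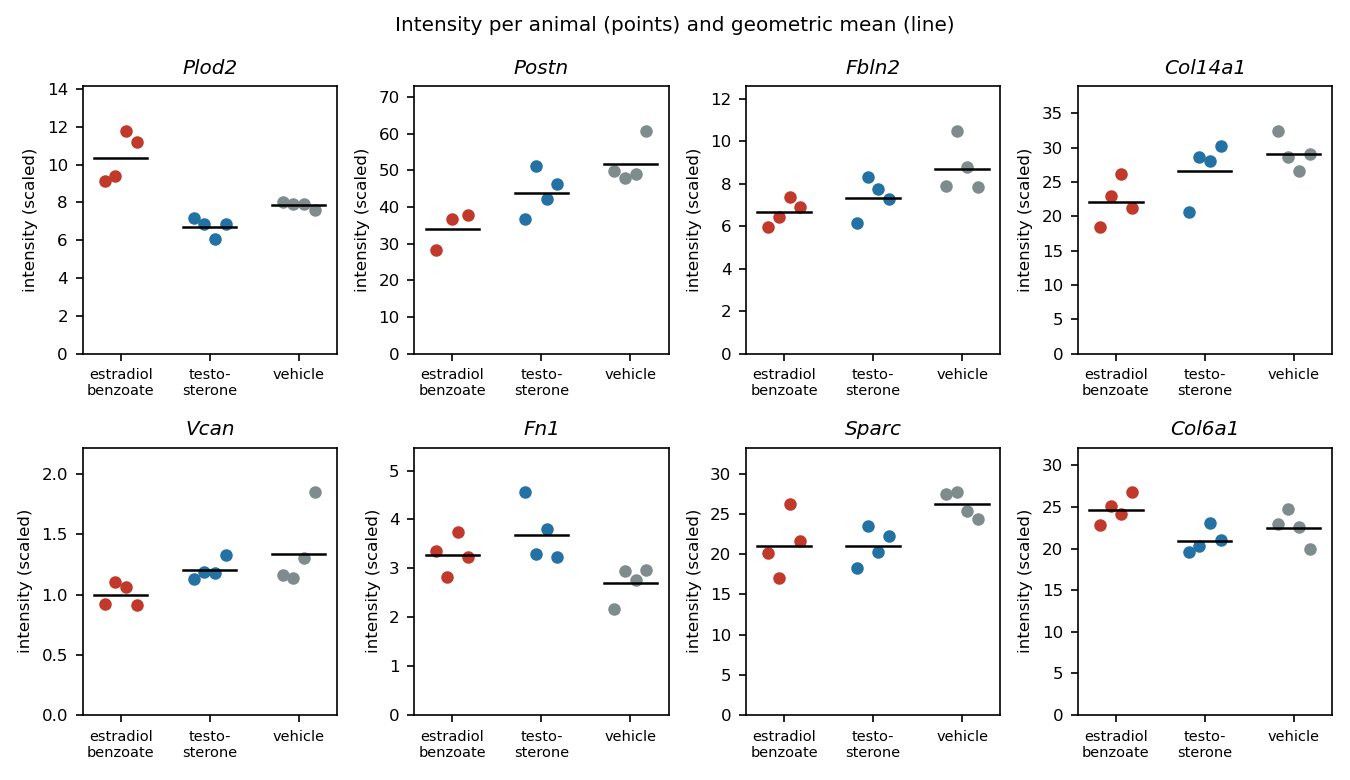
Scaled intensity of 8 matrix probes in each animal (points) with the geometric mean of each group (line), in estradiol benzoate, testosterone and vehicle animals, with axes from 0. Plod2 is split into 3 separate groups, Postn, Fbln2, Col14a1 and Vcan are lowest on average with estradiol benzoate, and Fn1 (probe 11604) is highest on average with testosterone.

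Estradiol benzoate against vehicle asked which matrix genes differed after estrogen replacement. No matrix probe of 39 passed an adjusted p of 0.05, as no probe of the 10228 did (0%). At an unadjusted p under 0.05, 10 of 39 matrix probes were counted (25.6%, against 13.5% of all probes), 3 higher (7.69% against 6.77%) and 7 lower (17.9% against 6.69%). The 3 higher were Plod2, Col8a2 and Col9a2, and the 7 lower were Postn, Fbln2, Vcan, Col14a1, Col1a1 probe 12136, Sparc and Loxl1. The groups did not overlap for 1 probe higher (2.56% against 3.53% of all probes) and 4 lower (10.3% against 4.29%). The 4 lower included Postn, which had only 3 measured estradiol benzoate animals. The median log2 difference over the matrix probes was -0.07, against -0.01 over all probes, and 15 of 39 differences were above 0 (38.5%, against 47.6%).

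Single animals moved this count of 10. It was 5 of 37 without estradiol benzoate animal 3 (2 higher and 3 lower, with 8.93% of all probes), 5 of 37 without estradiol benzoate animal 8 (1 higher and 4 lower, 10.5% of all probes) and 5 of 39 without vehicle animal 3 (1 higher and 4 lower, 9.75% of all probes). Without estradiol benzoate animal 3 and vehicle animal 5 together it was 6 of 37, 3 higher and 3 lower, with 8.52% of all probes. Quantile normalization gave 4 higher and 3 lower of 39, with 13% of all probes. Brightness moved with the lower members: among the 1780 probes with a mean log2 intensity above 2, the median difference was -0.06 and 8.88% were lower at an unadjusted p under 0.05, while among the 20 matrix probes in that range the median was -0.17 and 6 were lower (30%). Its part in the result was not tested.

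Postn, a matricellular protein that binds collagen and assists its assembly, had the smallest p among the lower members. It was at 28.3, 36.8 and 37.9 in estradiol benzoate animals 2, 3 and 8, 36.8, 51.3, 42.3 and 46.2 in testosterone animals 2, 4, 6 and 8, and 49.9, 47.9, 49.1 and 60.9 in vehicle animals 3, 4, 5 and 8. All 3 measured estradiol benzoate animals lay below all vehicle animals, and vehicle animal 8 stood highest. Estradiol benzoate animal 5 had no value for this bright probe. That animal was the highest of its group for 17 of the 37 matrix probes measured in all 4. How its blank bears on the separation and the size of the difference was not tested. The log2 difference from vehicle was -0.60 with estradiol benzoate (SE 0.15, 95% interval -0.93 to -0.28, adjusted p = 0.1869 in limma, fitted without animal 5) and -0.24 with testosterone (SE 0.14, adjusted p = 0.4546). It was -0.38 after quantile normalization (adjusted p = 0.3732). With all 24 arrays and the animal as a random block it was -0.59 and passed (adjusted p = 0.04858 in limma). In that setting 226 of the 10228 probes passed, against 0 in the reported one.

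Fibulin 2 (Fbln2), which bridges basement membranes and elastic fibres, was at 5.94, 6.45, 7.39 and 6.89 in estradiol benzoate animals, 6.13, 8.32, 7.73 and 7.29 in testosterone animals, and 7.88, 10.5, 8.78 and 7.82 in vehicle animals. Estradiol benzoate and vehicle did not overlap, and testosterone spanned both. The log2 differences from vehicle were -0.39 with estradiol benzoate (SE 0.13, adjusted p = 0.2711 in limma) and -0.25 with testosterone (SE 0.13, adjusted p = 0.4002). The testosterone value was -0.16 without testosterone animal 2 and -0.15 without vehicle animal 4. The other elastic fibre genes had negative estradiol benzoate differences as well: -0.21 for Fbln5, which anchors elastic fibres to cells, -0.22 for Fbn1 (fibrillin 1, the main microfibril protein) and -0.96 for Fbn2 (fibrillin 2), of which none was counted. Fbn1 was at 3.22, 3.7, 3.64 and 3.57 with estradiol benzoate, 4.06, 4.15, 4.4 and 2.94 with testosterone, and 3.29, 4.83, 3.42 and 5.25 with vehicle, so that the groups overlapped. The Fbn2 difference came from vehicle animal 5, at 0.308 on 1 array, against 0.0182 to 0.0343 in the other three vehicle animals, and it was 0.20 when values at or below 0 were set to the smallest positive value.

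Versican (Vcan), a large proteoglycan that loosens and hydrates the matrix, was at 0.92, 1.1, 1.06 and 0.912 in estradiol benzoate animals, 1.13, 1.19, 1.18 and 1.33 in testosterone animals, and 1.16, 1.14, 1.3 and 1.85 in vehicle animals. All estradiol benzoate animals lay below all others, while testosterone and vehicle overlapped. The separation was narrow: the highest estradiol benzoate value was 1.1, the lowest testosterone value 1.13 and the lowest vehicle value 1.14. On the log2 scale, the SD between both arrays of an animal was 0.121 for this probe. The log2 difference from vehicle was -0.43 with estradiol benzoate (SE 0.15, adjusted p = 0.2841 in limma) and -0.15 with testosterone (SE 0.15). Vehicle animal 8 was highest, and without it the estradiol benzoate difference was -0.27. Biglycan (Bgn), a small leucine-rich proteoglycan that binds collagen, was at 6.19, 3.54, 5.34 and 5.09 with estradiol benzoate, 8.02, 5.25, 5.01 and 2.83 with testosterone, and 5.86, 6.58, 4.93 and 4.17 with vehicle. These groups overlapped, with a difference of -0.10 for each hormone (SE 0.28). Lumican (Lum), a small proteoglycan that limits fibril width, differed by -0.22 with estradiol benzoate (SE 0.20) and by 0.03 with testosterone.

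Among fibrillar collagens, 6 of 7 probes had a negative estradiol benzoate difference and 1 was counted. Some of these signs changed with the setting. Col5a3 became 0.02 after quantile normalization and 0.08 on the AA arrays alone, and turned positive without some single animals. Col5a2 became 0.06 on the AB arrays alone. Col1a1, the alpha 1 chain of type I collagen, had 2 probes. Probe 12136 was at 20.1, 18.8, 26.9 and 19.6 with estradiol benzoate, 25.6, 26.6, 26.1 and 22.6 with testosterone, and 31.6, 26.7, 30.6 and 22 with vehicle. Estradiol benzoate animal 5 and vehicle animal 8 crossed the other group's range, and the log2 difference was -0.38 (SE 0.14, adjusted p = 0.3063 in limma). Probe 10618 was at 41.1, 47.1 and 41 in the 3 measured estradiol benzoate animals, 46.1, 59.3, 50.6 and 48.2 in testosterone animals, and 52, 51.4, 64.5 and 43.4 in vehicle animals. It differed in the same direction, by -0.28 (SE 0.14, adjusted p = 0.3950 in limma), fitted without estradiol benzoate animal 5, the highest of its group at probe 12136. The chains of type V collagen, which starts fibrils and sets their width, differed less: -0.15 and -0.07 for the probes of Col5a1, -0.20 for Col5a2 and -0.05 for Col5a3. Col2a1, the cartilage collagen, was dim (0.257 to 0.385 over all animals) and differed by 0.15 (SE 0.12).

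Collagen XIV (Col14a1), which decorates fibrils, was at 18.5, 22.9, 26.2 and 21.2 with estradiol benzoate, 20.6, 28.7, 28 and 30.2 with testosterone, and 32.5, 28.6, 26.6 and 29.1 with vehicle. Estradiol benzoate and vehicle did not overlap, and testosterone animal 2 stood apart from the rest of its group at the low end. The separation was narrow: log2 intensity was 4.71 in estradiol benzoate animal 5 and 4.74 in vehicle animal 5. The SD between the 2 arrays of an animal was 0.0815 for this probe. Vehicle animals 5 and 8 had a value on 1 array each. The log2 difference from vehicle was -0.40 with estradiol benzoate (SE 0.14, adjusted p = 0.2853 in limma) and -0.13 with testosterone (SE 0.14). Sparc, a collagen-binding matricellular protein, was at 20.1, 17, 26.2 and 21.6 with estradiol benzoate, 18.3, 23.5, 20.2 and 22.3 with testosterone, and 27.5, 27.7, 25.3 and 24.4 with vehicle (probe 11704). Every testosterone animal lay below every vehicle animal, and estradiol benzoate animal 5 reached into the vehicle range. Sparc differed from vehicle by -0.32 with each hormone (SE 0.13, adjusted p = 0.3270 with estradiol benzoate and 0.3240 with testosterone in limma). The 2 comparisons share the vehicle animals.

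Of 5 network and filament collagens, 4 had a positive estradiol benzoate difference and 1 was counted. Of the 4, Col4a4 became -0.02 on the AA arrays alone, -0.01 without estradiol benzoate animal 2 and -0.02 without vehicle animal 3. Col8a2, a chain of the short network collagen VIII of vessel walls, ranged from 0.975 to 1.37 with estradiol benzoate, 0.769 to 1.09 with testosterone and 0.635 to 1.01 with vehicle. The groups overlapped at 1 vehicle animal, and the log2 difference was 0.47 with estradiol benzoate (SE 0.18, adjusted p = 0.3111 in limma) and 0.21 with testosterone (SE 0.18). Col4a1, the alpha 1 chain of basement membrane collagen, was at 7.12, 6.17, 7.39 and 6.8 with estradiol benzoate, 7.48, 5.21, 8.01 and 4.75 with testosterone, and 5.9, 7.08, 6.35 and 4.92 with vehicle. Its groups overlapped, with a difference of 0.19 with estradiol benzoate (95% interval -0.19 to 0.57). Collagen IX (Col9a2), which coats cartilage fibrils, was dim, at 0.446, 0.398, 0.3 and 0.355 with estradiol benzoate, 0.475, 0.271, 0.402 and 0.315 with testosterone, and 0.246, 0.292, 0.343 and 0.225 with vehicle. Only vehicle animal 5 lay inside the estradiol benzoate range, and the difference was 0.44 (SE 0.19, adjusted p = 0.3488 in limma).

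Of 4 laminin chains, none was counted with estradiol benzoate. Lamb2, the beta 2 chain, was at 1.1, 0.701, 0.859 and 1.06 with estradiol benzoate, 1.34, 0.76, 1.17 and 0.474 with testosterone, and 0.431, 0.862, 0.535 and 0.675 with vehicle. It gave the largest positive matrix difference of estradiol benzoate from vehicle, 0.60, with an SE of 0.32 (adjusted p = 0.4205 in limma). Lama3, the alpha 3 chain, was at 0.251, 0.172, 0.166 and 0.159 with estradiol benzoate, 0.195, 0.197, 0.164 and 0.152 with testosterone, and 0.146, 0.171, 0.155 and 0.147 with vehicle. Its difference of 0.25 (SE 0.15) was 0.10 without estradiol benzoate animal 2, and 0.01 on the AA arrays against 0.49 on the AB arrays. Lama4, the alpha 4 chain of vessel basement membranes, differed by 0.02 with estradiol benzoate and 0.20 with testosterone (SE 0.14 each), and the estradiol benzoate value was -0.29 on the AA arrays alone.

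**Figure D3:**
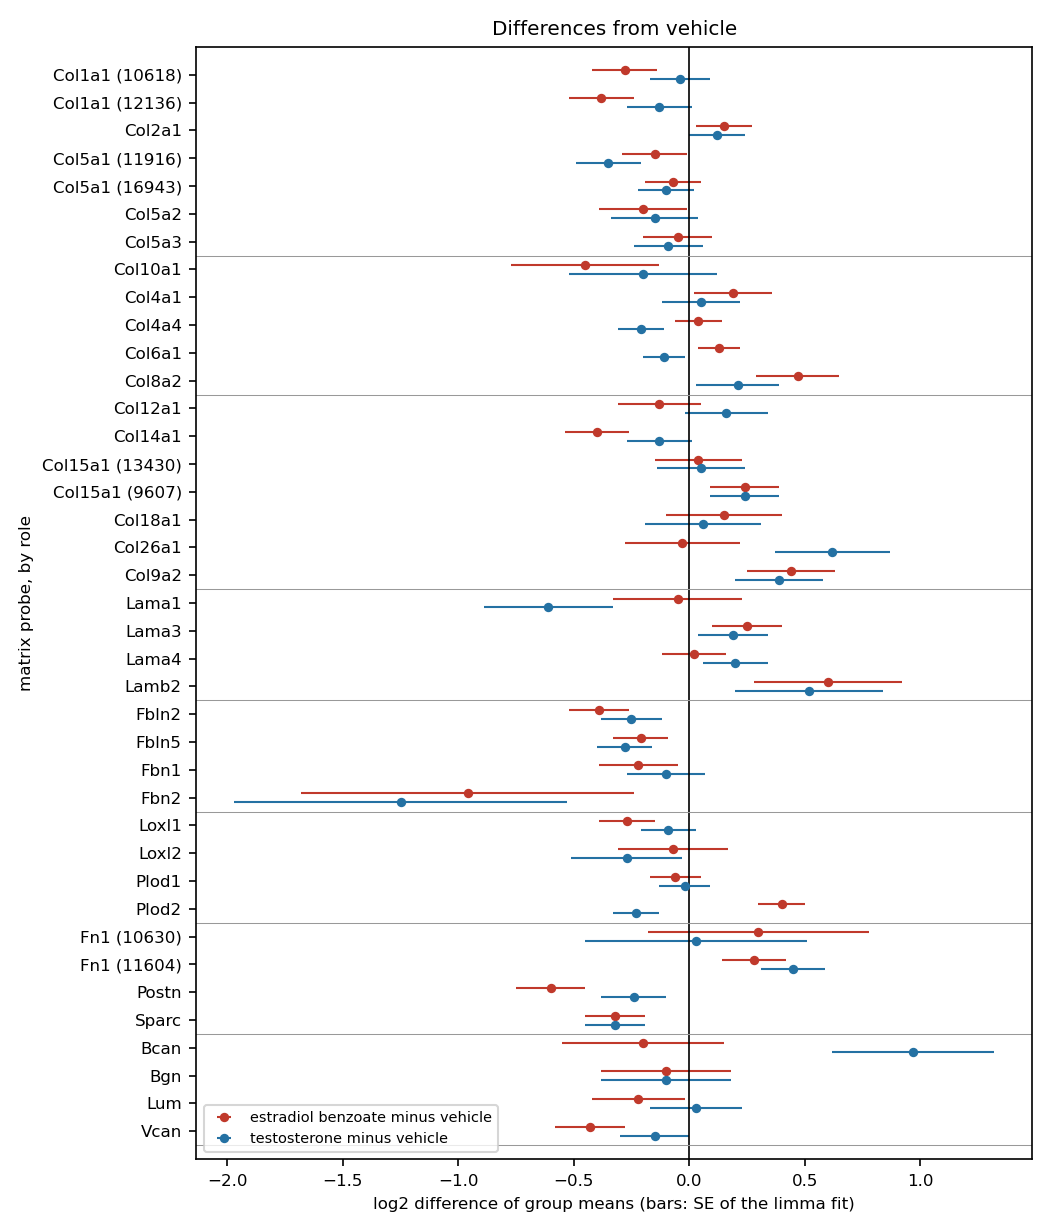
Log2 difference from vehicle of each tested matrix probe, grouped by role, for estradiol benzoate and for testosterone (points) with the SE of the limma fit (bars). The 4 elastic fibre probes are below 0 for both hormones (Fbn2 with estradiol benzoate became 0.20 when values at or below 0 were set to the smallest positive value, and Fbn1 with testosterone became 0.03 without testosterone animal 8 and 0.02 without vehicle animal 8). The 2 sets of differences share the vehicle animals.

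Testosterone against vehicle asked the same of the androgen. No matrix probe of 39 passed an adjusted p of 0.05, against 5 of 10228 (0.0489%). At an unadjusted p under 0.05, 8 of 39 were counted (20.5%, against 14% of all probes), 3 higher (7.69% against 6.62%) and 5 lower (12.8% against 7.43%). The 3 higher were Fn1 probe 11604, Bcan and Col26a1, and the 5 lower were Col5a1 probe 11916, Sparc, Fbln5, Plod2 and Lama1. Groups were apart for 1 probe higher (2.56% against 2.45%) and 2 lower (5.13% against 3.14%). The median difference was -0.09 over the matrix probes and -0.01 over all probes, and 16 of 39 were above 0 (41%, against 47.7%). The count of 39 was 5 without testosterone animal 2 (with 10.7% of all probes), and 4 without testosterone animal 6 (10.4%), vehicle animal 3 (9.84%) or vehicle animal 4 (14.9%). It was 3 after quantile normalization, all 3 of them higher, with 12.4% of all probes. Bright probes were shifted as well: the 1780 probes with a mean log2 intensity above 2 had a median difference of -0.08. Of these, 11.1% were lower at an unadjusted p under 0.05. The 20 matrix probes in that range had a median of -0.10, with 4 lower (20%). The part of brightness in these differences was not tested.

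Fibronectin (Fn1), which links cells to collagen, was represented by 2 probes. Probe 11604 was at 3.36, 2.83, 3.75 and 3.23 with estradiol benzoate, 4.56, 3.3, 3.8 and 3.24 with testosterone, and 2.17, 2.95, 2.77 and 2.96 with vehicle. Every testosterone animal lay above every vehicle animal, with a log2 difference of 0.45 (SE 0.14, 95% interval 0.15 to 0.76, adjusted p = 0.2433 in limma), and estradiol benzoate gave 0.28 (SE 0.14). Probe 10630 was at 0.46, 0.62, 0.927 and 0.8 with estradiol benzoate, 0.389, 0.908, 1.23 and 0.234 with testosterone, and 0.347, 0.844, 0.456 and 0.693 with vehicle. Its groups overlapped and its differences from vehicle were 0.30 with estradiol benzoate (SE 0.48) and 0.03 with testosterone, the testosterone one with a 95% interval of -1.02 to 1.09 that contains the value of the first probe.

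Fbln5 was at 14.2, 13.5, 16.7 and 14.2 with estradiol benzoate, 13.4, 15.8, 13.6 and 13 with testosterone, and 18.9, 16.4, 18.9 and 14 with vehicle. Vehicle animal 8 was the one vehicle animal inside the testosterone range, and the log2 difference was -0.28 (SE 0.12, adjusted p = 0.3262 in limma), or -0.17 with the animal number as a block. Col5a1 probe 11916 was at 14, 12, 15.6 and 12.5 with estradiol benzoate, 12.6, 12.3, 13.8 and 8.83 with testosterone, and 15.9, 15.4, 15.1 and 13.6 with vehicle. Testosterone animal 8 was lowest, and the difference of -0.35 (SE 0.14, adjusted p = 0.3182 in limma) was -0.22 without it. The second Col5a1 probe, 16943, gave -0.10 (SE 0.12).

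The remaining counted members were dim. Brevican (Bcan), a proteoglycan best known from brain, was at 0.0142, 0.0131, 0.0127 and 0.0203 with estradiol benzoate, 0.0725, 0.0393, 0.0189 and 0.0227 with testosterone, and 0.0149, 0.0191, 0.0162 and 0.0182 with vehicle. Its testosterone difference of 0.97 (SE 0.35, adjusted p = 0.2891 in limma) was 0.59 without testosterone animal 2 and 0.29 with a pseudocount of 0.1. Col26a1, a collagen with a short triple helix, was at 0.0343, 0.0609, 0.0423 and 0.0536 with estradiol benzoate, 0.11, 0.0447, 0.0668 and 0.0867 with testosterone, and 0.0514, 0.0491, 0.0493 and 0.0415 with vehicle. Its difference of 0.62 (SE 0.25, adjusted p = 0.3240 in limma) became 0.18 with a pseudocount of 0.1 and -0.48 when 1 spot at or below 0 was given the smallest positive value in place of being left out. Lama1, the alpha 1 laminin chain, was at 0.0255, 0.0245, 0.0171 and 0.0131 with estradiol benzoate, 0.0186, 0.0109, 0.0114 and 0.0131 with testosterone, and 0.0308, 0.019, 0.0138 and 0.0202 with vehicle. The groups overlapped, and its difference of -0.61 (SE 0.28, adjusted p = 0.3554 in limma) was -0.40 without vehicle animal 3 and -0.09 with a pseudocount of 0.1.

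Estradiol benzoate against testosterone compared both hormones directly. No matrix probe of 39 passed an adjusted p of 0.05, against 3 of 10228 (0.0293%). At an unadjusted p under 0.05, 6 of 39 were counted (15.4%, against 4.13% of all probes), of which 3 were higher with estradiol benzoate (7.69% against 2.41%) and 3 lower (7.69% against 1.71%). The higher ones were Plod2, Col6a1 and Col4a4, and the lower ones were Bcan, Col26a1 and Postn. The groups were apart for Plod2, higher with estradiol benzoate (2.56% against 1.88%), and for Vcan, lower (2.56% against 1.17%). The median difference was 0.00 over the matrix probes and over all probes, and 20 of 39 were above 0 (51.3%, against 48.5%). The count was 3 of 37 without estradiol benzoate animal 2 (with 4.02% of all probes) and 3 of 39 without testosterone animal 4 (3.47%).

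Col6a1, a chain of the beaded filament collagen VI, was at 22.8, 25.1, 24.2 and 26.8 with estradiol benzoate, 19.6, 20.3, 23.1 and 21 with testosterone, and 23, 24.8, 22.6 and 20 with vehicle. Testosterone animal 6 reached into the estradiol benzoate range, vehicle overlapped both, and the log2 difference between the hormones was 0.24 (SE 0.09, adjusted p = 0.9994 in limma). Col4a4, a chain of specialised basement membranes, was dim, at 0.0496, 0.0409, 0.0427 and 0.0467 with estradiol benzoate, 0.0358, 0.0377, 0.0373 and 0.0409 with testosterone, and 0.039, 0.0415, 0.0505 and 0.0448 with vehicle. It gave 0.24 (SE 0.10, adjusted p = 0.9994 in limma), or 0.07 with a pseudocount of 0.1. Among the lower members, Postn differed by -0.36 (SE 0.15), Bcan by -1.17 (SE 0.35, adjusted p = 0.6788 in limma), with -0.33 at a pseudocount of 0.1, and Col26a1 by -0.65 (SE 0.25), with -0.18 at that pseudocount and 0.45 when values at or below 0 were set to the smallest positive value. The differences for Vcan (-0.28), Col14a1 (-0.27) and Col1a1 probe 12136 (-0.25) each had 95% intervals that included 0.

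Over the 3 groups together, the moderated F test counted 9 of 39 matrix probes at an unadjusted p under 0.05 (23.1%, against 11.9% of all probes) and 0 at an adjusted p under 0.05, against 1 of 10228 (0.00978%). Plod2 came first among the matrix probes (adjusted p = 0.1052 in limma), followed by Postn (adjusted p = 0.2690).

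**Figure D4:**
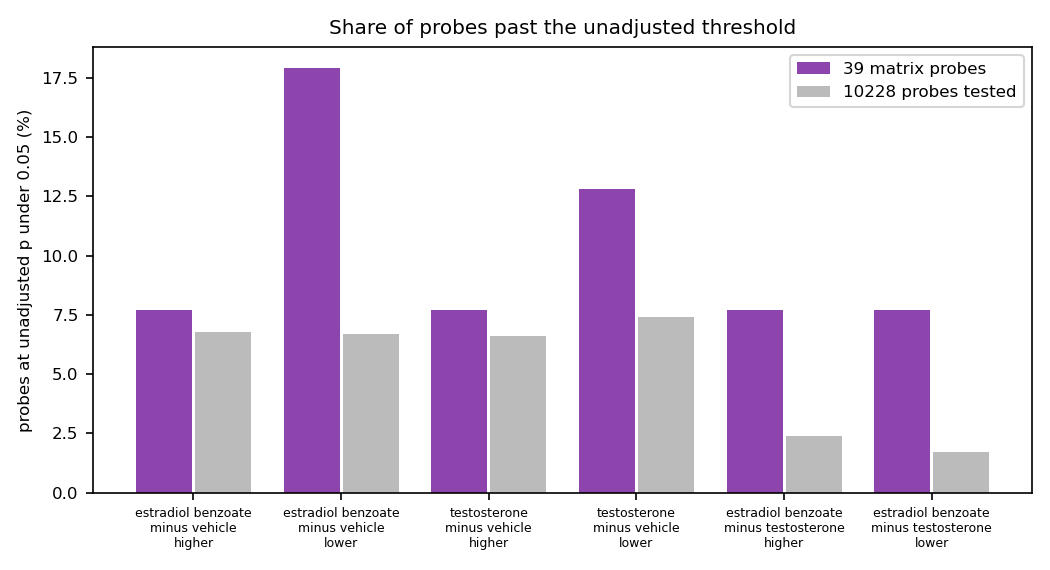
Share of the 39 matrix probes and of the 10228 probes tested (bars, in percent) at an unadjusted p under 0.05, higher and lower in each comparison. The widest gap is for probes lower with estradiol benzoate than with vehicle, 17.9% against 6.69%.

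The animals of a group also differed across the matrix probes. Testosterone animal 8 was the lowest testosterone animal for 19 of 39 probes (48.7%), and vehicle animal 8 was the lowest vehicle animal for 21 of 39 (53.8%). Estradiol benzoate animal 5 was the highest of its group for 17 of the 37 probes measured in all 4 animals, and animals 2 and 3 were lowest for 14 and 15 of them. Fibrillar collagens shared this spread: their median distance from the mean of the 3 group means was -0.14, -0.04, 0.12 and -0.11 in the estradiol benzoate animals, -0.08, 0.05, 0.06 and -0.09 in the testosterone animals, and 0.26, 0.02, 0.20 and -0.15 in the vehicle animals. Col1a1 probe 10618 had no value in estradiol benzoate animal 5 and did not enter its median. Vehicle animal 8 had the lowest fibrillar collagen value, -0.15, close to the -0.14 of estradiol benzoate animal 2.

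Partner genes of the matrix were read from 5 lists, of which 0 members passed an adjusted p of 0.05 in limma in any comparison. Of 8 tested genes of collagen folding and processing, 0 were higher and 2 lower with estradiol benzoate than with vehicle at an unadjusted p under 0.05. Over all probes in that comparison, 6.77% were higher and 6.69% lower. P4ha2, a collagen prolyl hydroxylase subunit, was at 2.91, 3.56, 3.62 and 3.03 in estradiol benzoate animals and 4.11, 4.01, 4.58 and 4.17 in vehicle animals, without overlap (-0.37, SE 0.11, adjusted p = 0.2473). Bmp1, which cleaves procollagen, differed by -0.36 (SE 0.13). Of 13 tested fibre assembly and basement membrane partners, 1 was higher (Fmod, fibromodulin, a collagen-binding proteoglycan, 0.91, SE 0.31, adjusted p = 0.2789) and 5 lower, among them the microfibril protein Mfap5 (-0.51, SE 0.16) and the basement membrane protein Smoc2 (-0.39, SE 0.12). Of 12 genes of TGF-beta signalling, which drives matrix synthesis, 1 was higher (Ccn2, a matricellular target of the pathway, 0.48, SE 0.21, adjusted p = 0.3423) and 2 lower: the signal transducers Smad4 and Smad3 differed by -0.38 and -0.19 with estradiol benzoate and by -0.42 and -0.17 with testosterone. Of 8 matrix receptors, 1 was lower (Cd47, a thrombospondin receptor, -1.19, SE 0.46). Of 11 matrix turnover genes, 1 was higher and 1 lower: the gelatinase Mmp2 was at 6.79, 6.13, 7.37 and 7.38 with estradiol benzoate and 10.1, 8.27, 9.94 and 9.6 with vehicle, without overlap (-0.45, SE 0.12, adjusted p = 0.1978), and the inhibitor Timp4 differed by 0.43 (SE 0.17). With testosterone against vehicle, the 5 lists held 0, 0, 0, 0 and 1 genes higher and 0, 1, 2, 1 and 0 lower, in the same order, against 6.62% higher and 7.43% lower over all probes.

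Fibroblasts make much of this matrix. Of 11 listed fibroblast markers, 4 were tested (Mfap5, Dpt, Pi16 and Pdpn), and their summed intensity was 31.9 to 38.7 in estradiol benzoate animals, 31.5 to 48.7 in testosterone animals and 45 to 57.7 in vehicle animals, most of it from Mfap5. The estradiol benzoate and vehicle sums did not overlap. Mfap5 and Dpt (dermatopontin, a collagen-binding protein) also belong to the fibre assembly list. Both were lower with estradiol benzoate at an unadjusted p under 0.05 (against 6.69% of all probes). Dpt differed by -2.14 (SE 0.90), Pi16 by 0.00 (SE 0.15) and Pdpn by 0.30 (SE 0.69). Dpt was at 1.09, 1.37, 0.179 and 0.157 in estradiol benzoate animals, 0.24 to 3.32 in testosterone animals and 1.55 to 3.12 in vehicle animals. With testosterone, Mfap5 was lower at that threshold as well (-0.36, SE 0.16, against 7.43% of all probes), and Dpt differed by -0.44 (SE 0.90). In whole arteries, fewer cells of a type and less RNA per cell cannot be told apart, and the part of fibroblast content in the matrix differences was not tested. Of 8 mitosis genes, 2 were lower with estradiol benzoate at an unadjusted p under 0.05 (against 6.69% of all probes), with sums of 8.61 to 19.6 in estradiol benzoate animals, 11.4 to 26.7 in testosterone animals and 14.9 to 30.5 in vehicle animals.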

How the data were processed

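The values were spot intensities deposited by the authors as one table for 24 one-colour CodeLink arrays of 12 rats, hybridised for 18 h per the labels. How the intensities were scanned, background-corrected, scaled and filtered is not given in the sources used here. Spots without a value and the 327 intensities at or below 0 were left out, log2 was taken without pseudocount or further scaling, and both arrays of an animal were averaged. Probes measured in 3 or more animals per group were fitted together with limma 3.58.1 in R 4.3.3 (lmFit on group means, eBayes), two-sided, with Benjamini-Hochberg adjustment over 10228 probes. An adjusted p under 0.05 was a call. The fit was tested on simulated data. The number of animals, 4 per group with 2 arrays each, limits the precision.

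Of 10399 probes, 7294 had 1 gene symbol, 88 several and 3017 none in the platform annotation. Of the single symbols, 7284 matched the gene reference by gene ID and 0 changed. Values in every animal were given for the 6 matrix probes with the smallest p per comparison among probes brighter than the median, up to 3 dimmer ones, and a fixed set of genes (Col1a1, Col4a1, Fbn1, Fn1, Sparc, Bgn, Vcan, Plod2). Values of Loxl1 in every animal were added after they were seen. The members, roles, pathway lists and marker lists were chosen with earlier results of these data known, so they are no independent evidence. Pathway genes were named by the 2 smallest p per list and comparison; Fmod and Ccn2 were added after their values were seen. Beside the lists described, endothelium (8 genes tested), mesothelium (3), white adipocyte (6), lymphocyte (8), macrophage (5) and striated muscle (6) markers were read. At an unadjusted p under 0.05, estradiol benzoate against vehicle had 0, 0, 2, 6, 0 and 1 of these higher (6.77% of all probes). It had 1, 0, 0, 0, 0 and 0 lower (6.69%). Testosterone against vehicle had 0, 0, 2, 4, 0 and 1 higher (6.62% of all probes). It had 1, 1, 0, 0, 2 and 1 lower (7.43%). The alternatives were other treatments of values at or below 0, quantile normalization, median centring, probe filters, another prior, single array sets, an animal block, a replicate block and leaving out each animal. The labels name separate animals, so p-values measure the spread between animals.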

Additional observations from a re-analysis of the deposited data

Results flagged for a closer look

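In groups of 4 animals, a highest or lowest animal was singled out where its gap to the nearest animal as a share of the group's range (log2 scale) was above Dixon's critical value. This held for 4 of the 115 groups of matrix values examined, and chance gives about 1 in 20. Vehicle animal 8 was highest for Postn at a log2 intensity of 5.93 (intensity 60.9), with the nearest vehicle animal at 5.64. The same animal was lowest for Col15a1 probe 13430, the basement membrane zone collagen XV, at 3.67 (12.7), with the nearest at 4.48. The second Col15a1 probe had the same animal lowest, at an intensity of 5.79 against 6.98 to 8.37 in the other three vehicle animals. Estradiol benzoate animal 2 was lowest for Col5a2 at 3.32 (10), with the nearest at 3.82, and highest for Lama3 at -1.99 (0.251), with the nearest at -2.54.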

How the results depend on the processing

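Besides the reported setting, 24 others were run. Of 614 differences of named members, 608 kept their direction and side of the threshold, 4 passed it (Postn for estradiol benzoate against vehicle with all arrays and the animal as a random block, and Plod2 for estradiol benzoate against testosterone under 3 settings) and 2 reversed. Both reversals were Col26a1 with values at or below 0 set to the smallest positive value: -0.48 for testosterone against vehicle and 0.45 for estradiol benzoate against testosterone. No matrix probe was called in the reported setting, so keeping its side of the threshold says little about stability. Kept differences could also shrink. Lama3 with estradiol benzoate went from 0.25 to 0.01 on the AA arrays alone. Lama1 with testosterone went from -0.61 to -0.09 with a pseudocount of 0.1. Of 2098 differences of the other members, 144 changed sign, the largest of them reported at a size of 0.96 (Fbn2).

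Matrix probes at an adjusted p under 0.05 numbered 1 for estradiol benzoate against vehicle with the random block, when 226 of all probes were called. They numbered 1 for estradiol benzoate against testosterone with a pseudocount of 0.1, the probes below the 0.25 quantile left out, or a trended and robust prior. Of all probes, 4 of 10229, 4 of 7671 and 4 of 10228 were called in these settings. They numbered 1 in the F test with that pseudocount or that prior, for which the number over all probes is not given here. At an unadjusted p under 0.05, estradiol benzoate against vehicle gave 10 of 39 (13.5% of all probes), but 4 among the 24 with a value on every array (13.3%), 6 of 37 without the animals highest in pancreas and liver genes (chosen after seeing the data, 8.52%), and 5 to 11 when single animals were left out. On the AB arrays alone, 4 of 38 were higher and 3 lower (14.6%), so the lower members no longer outnumbered the higher ones. Testosterone against vehicle gave 8 (14%), but 5 of 39 with the pseudocount (14.2%), 5 of 32 with those dim probes left out (13.7%), 5 of 38 on the AA arrays alone (12%) or on the AB arrays alone (13.8%), 3 of 39 after quantile normalization (12.4%), 3 of 24 with a value on every array (13.6%), and 4 to 8 without single animals. Estradiol benzoate against testosterone gave 6 (4.13%), but 3 of 24 with a value on every array (4.23%), 3 of 32 with those dim probes left out (4.25%), 3 of 38 on the AA arrays alone (4.04%), and 3 to 7 without single animals. The median difference between the hormones was -0.10 without testosterone animal 8 and ranged to 0.03. The causes were not tested, apart from fewer probes or animals entering a setting.

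Animal numbers recur between groups but do not mark shared animals. Deviations of same-numbered animals correlated with r of -0.06, 0.05 and 0.11 (estradiol benzoate and vehicle), -0.12 and 0.03 (testosterone and vehicle), and 0.30 and 0.04 (both hormones). With a replicate block on these numbers, the unadjusted counts were 7, 3 and 6 for estradiol benzoate against vehicle, testosterone against vehicle and estradiol benzoate against testosterone (12.2%, 9.67% and 6.18% of all probes), and 0 matrix probes passed the adjusted threshold. Signal over background was not given, so it is unknown which dim members were detected.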
